A study of Homo sapiens with 4 samples.

Results

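Complement is a cascade of serum proteins made mainly by hepatocytes. It is triggered through antibody-bound C1, through lectins or by spontaneous turnover of C3, and these routes meet at the cleavage of C3 and then of C5, from which the membrane attack complex is built. Soluble and membrane-bound regulators stop the cascade on host cells, and many of the hepatocyte genes are known to respond to acute-phase cytokines.

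The genes described are 9 complement components and regulators made by hepatocytes, chosen by name from a table of 18806 gene symbols: the serine proteases C1R and C1S, the components C2, C3 and C5, factor B (CFB), and the regulators CFI, C4BPB and SERPING1. Of these, 8 have a row and all 8 were tested, and C2 is not analysed here. RNA was sequenced from Huh7, a human hepatocellular carcinoma line, and all cells came from a Cas9-expressing single clone that carried a lentiviral guide under hygromycin selection. The control group carried a non-targeting guide (sgNS, the control libraries) and the other a METTL16 guide (METTL16 KO, here KO for short, which the labels call a knockdown), with 2 libraries each. METTL16 is an RNA methyltransferase, and the comparison asks how gene expression changed upon its loss. The methods describe the libraries as biological replicates. They do not say whether these were transduced separately, or whether both KO libraries carried the same METTL16 guide. The p-values therefore measure only the spread between these libraries.

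Values are TPM, a relative transcript abundance that is scaled by transcript length so that levels of different genes can be compared. Each library sums to 1000000 TPM, the number of genes at 1 TPM or more ran from 11723 to 12074, and the read depth is unknown. METTL16 had 26.3 and 25.1 TPM under sgNS against 17.6 and 18.8 TPM in the KO libraries (log2 fold change -0.50, SE 0.0617, adjusted p = 2.43e-05). Cas9 edits need not remove a transcript, and protein was not measured here. The paper shows METTL16 Western blots of Huh7 knockout cells, without saying whether those are the cells sequenced. The hepatocyte markers were abundant, as all 6 (ALB, APOA1, TTR, SERPINA1, TF and AFP) lay between 410 and 10387 TPM. Their summed level was 16362 and 16440 TPM under sgNS against 28702 and 28345 TPM in the KO libraries. Of the 6, 5 were higher and TF was lower, while 50.1% of all genes were higher and 25.6% lower. The sum moved with the complement genes, but AFP weighed most in it, at 1737 and 1793 TPM against 10387 and 10197 TPM. The log2 fold change was 0.80 for APOA1, 0.74 for TTR, 0.41 for ALB, 0.17 for SERPINA1 and -0.43 for TF. Other cell types also make complement. Among 6 macrophage markers, PTPRC, CSF1R, CD163 and MARCO stayed under 1 TPM in every library. AIF1 had 1.28 and 0.78 TPM under sgNS against 0.50 and 0.73 TPM in the KO libraries. LYZ, also on that list, had 1510 and 1553 TPM under sgNS against 909 and 924 TPM in the KO libraries. The 6 fibroblast or stellate markers summed to 3.34 to 3.65 TPM under sgNS and 4.2 to 4.54 TPM in the KO libraries. The 6 endothelial markers summed to 4.76 to 5.16 TPM and 2.76 to 3.16 TPM, with TEK and CLEC4G listed at 0 throughout. Nearly all of that sum was PECAM1, at 5.14 and 4.74 TPM under sgNS against 3.09 and 2.70 TPM in the KO libraries. The part of these cell types in the results was not tested.

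Most of the complement genes were higher in METTL16 KO. Each gene was tested with limma on log2(TPM + 0.1) among 11971 genes with a mean of at least 1 TPM, and adjusted p-values are Benjamini-Hochberg over all of them. Seen this way, 7 of the 8 genes (C4BPB, C1R, C5, C1S, C3, CFI and SERPING1) rose at an adjusted p under 0.05, 0 fell, and CFB did not pass. That has to be read against a background in which 50.1% of all genes tested were higher and 25.6% lower by the same rule. With a log2 fold change of at least 1 required as well, 4 of the 8 (C4BPB, C1R, C5 and C1S) were higher and 0 lower, against 7.70% of all genes higher and 3.77% lower. The median log2 fold change of the 8 genes was 1.09, and that of all genes tested was 0.16. The genes were chosen with earlier results of these data known, so this comparison with all genes is only a description. Their summed level was 791 and 757 TPM in the control libraries against 1599 and 1560 TPM in the KO libraries. C3 made up most of this sum, at 472 and 435 TPM against 880 and 859 TPM. In such bulk samples, more cells expressing a gene and more RNA per cell cannot be told apart.

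**Figure D1:**
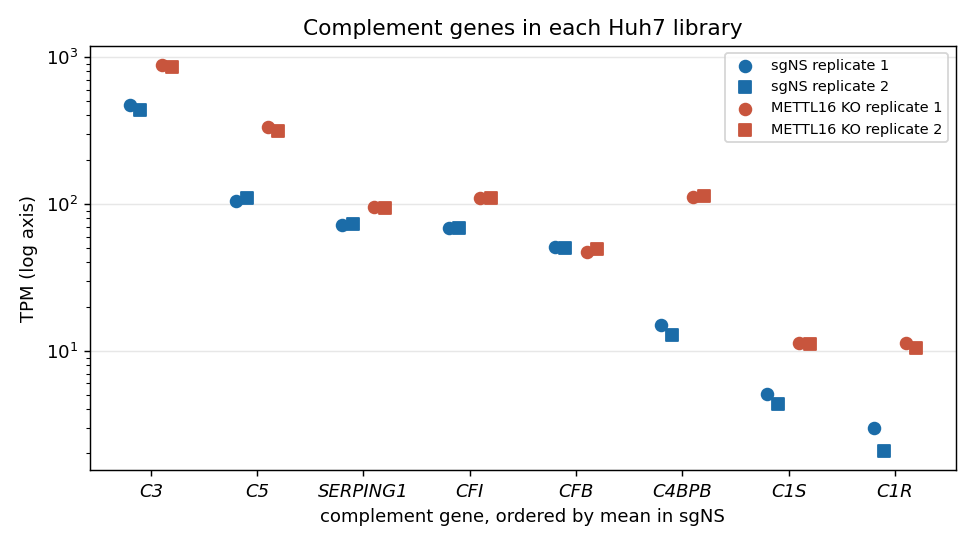
TPM (log axis) of the 8 complement genes in each library, with blue symbols for sgNS and red for METTL16 KO, circles for replicate 1 and squares for replicate 2. C4BPB shows the widest gap, from 12.9 and 15.1 TPM to 111 and 114 TPM, whereas the symbols of CFB lie close together at 46.9 to 51.3 TPM.

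C3, the protein on which all routes converge, was the most abundant of the genes in every library. C3 reached 472 and 435 TPM in the control libraries against 880 and 859 TPM in the KO libraries. The log2 fold change was 0.94 (SE 0.0379, adjusted p = 3.99e-09), a 1.92-fold rise, and among all 18806 genes C3 moved from level ranks 308 and 332 to ranks 164 and 170. GPR108, which overlaps C3 on the same strand in the annotation, fell by 0.50 on the log2 scale.

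C5, the paralog of C3 whose cleavage starts assembly of the attack complex, rose more than C3. Its control values of 105 and 110 TPM compared with 334 and 312 TPM after METTL16 targeting. The rise was 3.0-fold (log2 fold change 1.58, SE 0.0415, adjusted p = 1.74e-10). As a share of C3 within the same library, C5 stood at 0.223 and 0.252 under sgNS against 0.379 and 0.363 in the KO libraries, a log2 difference of 0.65. A ratio taken within a library is not altered by a scaling factor common to its genes, and an exact two-sided permutation test of 2 libraries against 2 cannot give a p below 0.333, so such ratios are given as a description. CNTRL, which overlaps C5 on the opposite strand, fell by 0.22 on the log2 scale.

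CFB, which pairs with C3 fragments to form the convertase of the alternative pathway, stood apart from these. The control libraries held 51.3 and 50.3 TPM and the KO libraries 46.9 and 49.4 TPM. The METTL16 KO values were slightly lower, with a log2 fold change of -0.08, a 95% confidence interval from -0.18 to 0.03 and an adjusted p of 0.162 in limma. The interval leaves room for a small fall but not for a rise of the size seen in the other 7 genes. When libraries were rescaled by the median of their gene ratios, CFB was at -0.24 (adjusted p = 0.00102), and with quantile normalization it was at -0.21 (adjusted p = 0.00447), so that CFB was then lower. Relative to C3, CFB fell from 0.109 and 0.116 to 0.0533 and 0.0575 within libraries, a pair chosen after its values were seen. In the annotation CFB overlaps C2 on the same strand, and reads of the overlap could be assigned to either gene.

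C1R and C1S are the proteases of the C1 complex: C1R activates C1S, which cleaves the next components. Both genes were the least abundant of the 8. Transcripts of C1R stood at 3.0 and 2.08 TPM in the control libraries against 11.2 and 10.4 TPM in the KO libraries. For C1S these were 5.08 and 4.36 TPM against 11.4 and 11.2 TPM. In relative terms, the sgNS libraries differed from each other more for these genes than for the abundant genes. The log2 fold change was 2.07 for C1R (SE 0.151, adjusted p = 3.82e-07) and 1.24 for C1S (SE 0.0982, adjusted p = 7.18e-07). The ratio of C1S to C1R was 1.69 and 2.10 under sgNS against 1.01 and 1.07 in the KO libraries, so that the excess of C1S over C1R seen in sgNS was no longer seen.

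The locus of these genes did not move as a block. On chromosome 12 of GRCh38, C1S lies at 6988259 to 7071032 on the plus strand and C1R at 7080214 to 7092540 on the minus strand, 9.2 kb apart. C1RL, a C1R-like protease gene on the same strand as C1R that overlaps its start, went from 23.0 and 20.6 TPM to 11.2 and 11.1 TPM and fell by 0.96 on the log2 scale (adjusted p = 4.71e-07). LPCAT3, which overlaps C1S on the opposite strand, fell by 0.16. Hence C1RL exceeded C1R by 7.65 and 9.91 times in sgNS and was level with it in METTL16 KO, at 0.995 and 1.06 times, a comparison chosen after its values were seen. The shared bases of C1R and C1RL make the division of reads between them uncertain. C1S also overlaps another protein-coding gene on its own strand, which has no row, so its reads carry a similar uncertainty.

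Of the regulators, C4BPB changed most. It encodes the beta chain of C4b-binding protein, a soluble inhibitor of the classical pathway convertase. Control values of 15.1 and 12.9 TPM compared with KO values of 111 and 114 TPM, an 8.03-fold rise that both libraries showed alike. Its log2 fold change of 3.0 (SE 0.0684, adjusted p = 5.99e-11) ranked 79 among the 11971 genes tested, and its level rank moved from 7368 and 7823 to 1538 and 1488. The alpha chain gene C4BPA lies 4.2 kb away on the same strand of chromosome 1 and rose less, from 13.5 and 13.0 TPM to 27.2 and 28.3 TPM (log2 fold change 1.06, SE 0.0616, adjusted p = 6.77e-08). Beta and alpha chain transcripts were thus at similar levels in sgNS, with ratios of 1.12 and 0.994, while in METTL16 KO the beta chain was in excess by 4.09 and 4.04 times.

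CFI, the protease that degrades the active C3 and C4 fragments, rose moderately. Its levels were 68.1 and 69.0 TPM under sgNS against 109 and 110 TPM in the KO libraries, with less than 2 TPM between libraries of a group. The log2 fold change was 0.68 (SE 0.0395, adjusted p = 6.70e-08). In the annotation CFI overlaps another protein-coding gene on the same strand, which has no row. Reads of that overlap could be assigned to either gene. Relative to C3 within libraries, CFI made up 0.144 and 0.158 under sgNS against 0.124 and 0.129 in the KO libraries, lower in both. SERPING1, the C1 inhibitor that blocks C1R and C1S, showed the smallest rise among those that passed. Its values were 71.4 and 73.5 TPM against 95.9 and 94.5 TPM, a log2 fold change of 0.39 (SE 0.0409, adjusted p = 6.06e-06). In relative terms the rises of C1R and C1S were thus larger than that of their inhibitor, although SERPING1 remained the more abundant transcript in every library.

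**Figure D2:**
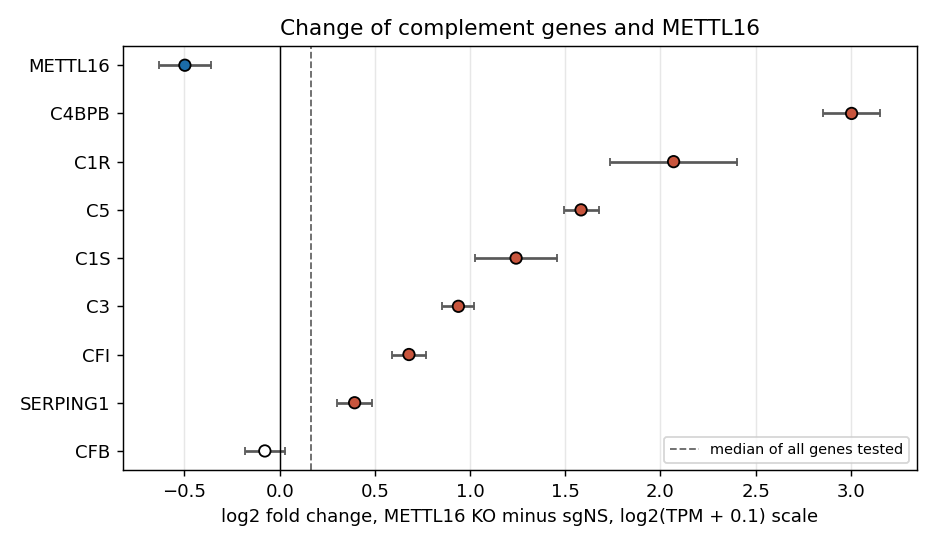
Log2 fold change of each complement gene and of METTL16 between METTL16 KO and sgNS on the log2(TPM + 0.1) scale, with bars for 95% confidence intervals from limma. Filled symbols passed an adjusted p of 0.05 (red higher, blue lower), the open symbol did not, and the dashed line is the median of all genes tested at 0.16. C4BPB lies at 3.0, SERPING1 at 0.39 and CFB at -0.08. Under either rescaling of the libraries the 7 rises still passed and CFB was lower.

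The order of levels changed with these rises. In sgNS the order by mean was C3, C5, SERPING1, CFI, CFB, C4BPB, C1S and C1R, and no neighbours in it had overlapping values. In METTL16 KO it was C3, C5, C4BPB, CFI, SERPING1, CFB, C1S and C1R, where only the values of C1S and C1R overlapped. C4BPB therefore passed CFB, SERPING1 and CFI. The genes are spread over the genome (GRCh38): C3 lies on chromosome 19 at 6677704 to 6730562, C5 on chromosome 9 at 120932987 to 121075195 and CFI on chromosome 4 at 109731008 to 109802150, all on the minus strand. On the plus strand lie CFB on chromosome 6 at 31945650 to 31952086, C4BPB on chromosome 1 at 207088860 to 207099993 and SERPING1 on chromosome 11 at 57597387 to 57619171.

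**Figure D3:**
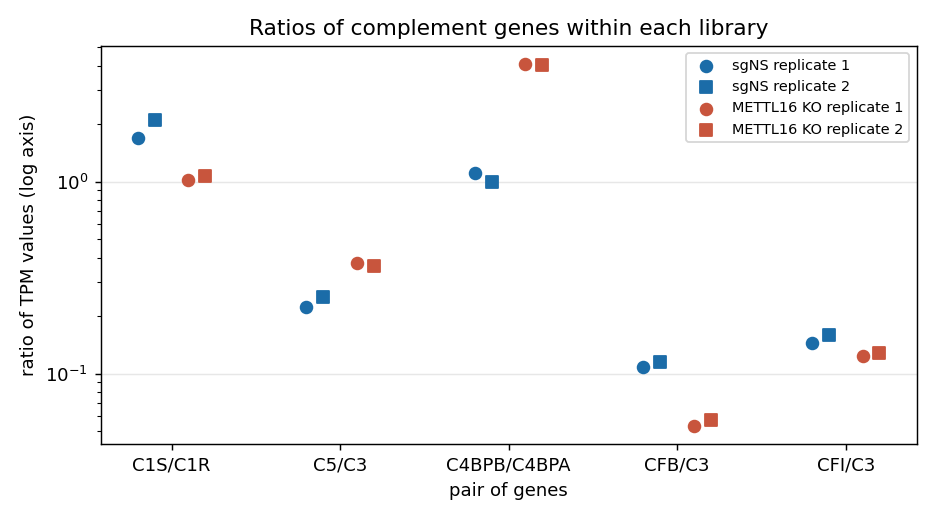
Ratio of the TPM values of gene pairs within each library (log axis), with symbols as in the plot of levels. C4BPB/C4BPA rose from 0.994 and 1.12 to 4.04 and 4.09 and C5/C3 rose less, while C1S/C1R, CFB/C3 and CFI/C3 were lower in METTL16 KO.

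Sequences before the start sites were searched for motifs of factors known to act on complement genes, since most of the genes rose together. RefSeq windows of 300 bases (250 before and 50 after a start site, build GRCh38.p14) were available for 5 of the 8 genes, with 9 windows in all. The motifs were searched on both strands. The STAT motif TTCNNNGAA was found in windows of CFB, C1R and C4BPB, and in 7.66% of all 35116 windows of the RefSeq set. The C/EBP core TTGCNNAA was found in C1R (10.5% of all windows). The NF-kB consensus (11.3%) and the interferon-stimulated response element GAAANNGAAA (3.57%) were found in CFB. No match was seen in the windows of C5 and CFI. The shares are per window, whereas matches are given per gene, and C4BPB has 3 windows and C1R and C5 have 2 each. A gene with several windows has more room for a match, so its matches cannot be set against these shares. A match is a description of the letters and not of binding. The windows shown are those of C4BPB, which rose most, of C1R, and of CFB, which holds 3 of the 4 motifs, and capitals mark the matches.

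Of the 3 C4BPB windows, the one shown is chr1:207089033-207089332 on the plus strand, with the first base of the STAT match at -43 from its start site. In the overlapping window chr1:207088989-207089288 the same bases begin at position 2 after another start site, and the remaining window has no match. Of the 2 C1R windows, the one shown is chr12:7091844-7092143 on the minus strand, with the C/EBP core and then the STAT motif. The other C1R window holds a C/EBP core only. The CFB window is chr6:31945845-31946144 on the plus strand, with the interferon element, the NF-kB consensus and the STAT motif, whose first bases lie at -140, -112 and -92 from the start site.
C4BPB: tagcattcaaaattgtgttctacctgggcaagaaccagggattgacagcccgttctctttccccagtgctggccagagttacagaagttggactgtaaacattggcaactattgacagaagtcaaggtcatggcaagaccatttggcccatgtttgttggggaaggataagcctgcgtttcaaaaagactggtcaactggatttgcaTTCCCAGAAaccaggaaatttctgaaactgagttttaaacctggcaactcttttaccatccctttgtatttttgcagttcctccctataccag
C1R: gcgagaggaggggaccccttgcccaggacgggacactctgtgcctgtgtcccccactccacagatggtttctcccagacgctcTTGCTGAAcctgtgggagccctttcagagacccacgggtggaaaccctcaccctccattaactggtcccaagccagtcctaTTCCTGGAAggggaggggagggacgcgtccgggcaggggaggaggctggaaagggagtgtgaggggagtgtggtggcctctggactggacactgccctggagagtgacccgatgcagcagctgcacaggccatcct
CFB: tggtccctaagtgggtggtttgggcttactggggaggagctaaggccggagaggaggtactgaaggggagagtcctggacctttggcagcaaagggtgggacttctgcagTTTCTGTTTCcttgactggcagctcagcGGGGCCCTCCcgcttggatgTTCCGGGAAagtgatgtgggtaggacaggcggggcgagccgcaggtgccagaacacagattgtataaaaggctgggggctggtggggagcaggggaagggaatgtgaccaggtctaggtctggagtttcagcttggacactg

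The rest of the cascade was mixed. Of 47 further complement genes listed by role, 45 had a row, 25 were tested, and 15 of these rose, 5 fell and 5 did not pass, shares close to the 50.1% higher and 25.6% lower among all genes. With the 2-fold threshold, 11 rose and 0 fell (7.70% and 3.77% of all genes), but 8 rose and 2 fell after median-ratio scaling, 8 and 1 after quantile normalization, and 6 rose when a mean of 5 TPM was required. The median log2 fold change of the 25 genes was 0.83 and depended on the filter: it was 0.08 with that requirement and 0.15 with all genes above 0, where the medians of all genes were 0.16 and 0.20. The genes MASP2, C6, C8G, CFHR2 and CFHR5 averaged under 1 TPM in sgNS and entered the test only through their METTL16 KO values, so these counts hold 5 genes that had to be higher. The C1Q genes (C1QA, C1QB and C1QC), the recognition subunits of C1 known from macrophages, were listed at 0 in all libraries.

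Of 9 soluble regulators tested, 6 rose, 2 fell and 1 did not pass, while 50.1% of all genes were higher and 25.6% lower. Of these 6, CFHR2 and CFHR5 averaged under 1 TPM in sgNS and were tested only through their METTL16 KO values, so they had to be higher. Of the factor H-related genes, CFHR4 rose by 2.44 on the log2 scale, from 1.08 and 1.10 TPM to 7.16 and 5.67 TPM, and CFHR5 by 3.05. CFHR2 went from 0.34 and 0.97 TPM to 2.43 and 2.58 TPM, a log2 fold change of 1.92 that was 1.28 without replicate 1 of sgNS and 2.57 without replicate 2. The size of these changes depended on the pseudocount, and with a pseudocount of 1 CFHR4 was at 1.82, CFHR5 at 2.19 and CFHR2 at 1.11. These genes are similar in sequence, so reads may be split between them. VTN and CLU, which block insertion of the attack complex, were abundant. VTN rose from 453 and 452 TPM to 1371 and 1330 TPM (log2 fold change 1.58), and CLU from 724 and 715 TPM to 1312 and 1301 TPM (0.86). CPB2 and CPN1, carboxypeptidases that inactivate complement fragments, fell by 0.89 and by 0.28 on the log2 scale, while CPN2 was at 0.04 with an adjusted p of 0.517.

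In the terminal pathway, which forms the pore, genes of the same complex moved in different directions. C8B rose from 1.98 and 1.70 TPM to 15.0 and 13.6 TPM (log2 fold change 2.90, SE 0.114, adjusted p = 3.41e-09). C8A, 11.0 kb away on chromosome 1 and encoding another chain of C8, went from 17.3 and 16.13 TPM to 11.7 and 11.9 TPM and fell by 0.50 (adjusted p = 5.83e-05). The ratio of C8B to C8A, chosen after its values were seen, was 0.114 and 0.105 under sgNS against 1.29 and 1.15 in the KO libraries. C6 was listed at 0.92 and 0.91 TPM and then at 9.25 and 9.06 TPM (log2 fold change 3.19, or 2.41 with a pseudocount of 1), and C8G at 0.90 in both sgNS libraries and then at 3.07 and 2.68 TPM. C7 rose by 0.34 but did not pass after median-ratio scaling (adjusted p = 0.0546) or quantile normalization (adjusted p = 0.0510). C9, which polymerises to complete the pore, was under 0.1 TPM in every library.

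**Figure D4:**
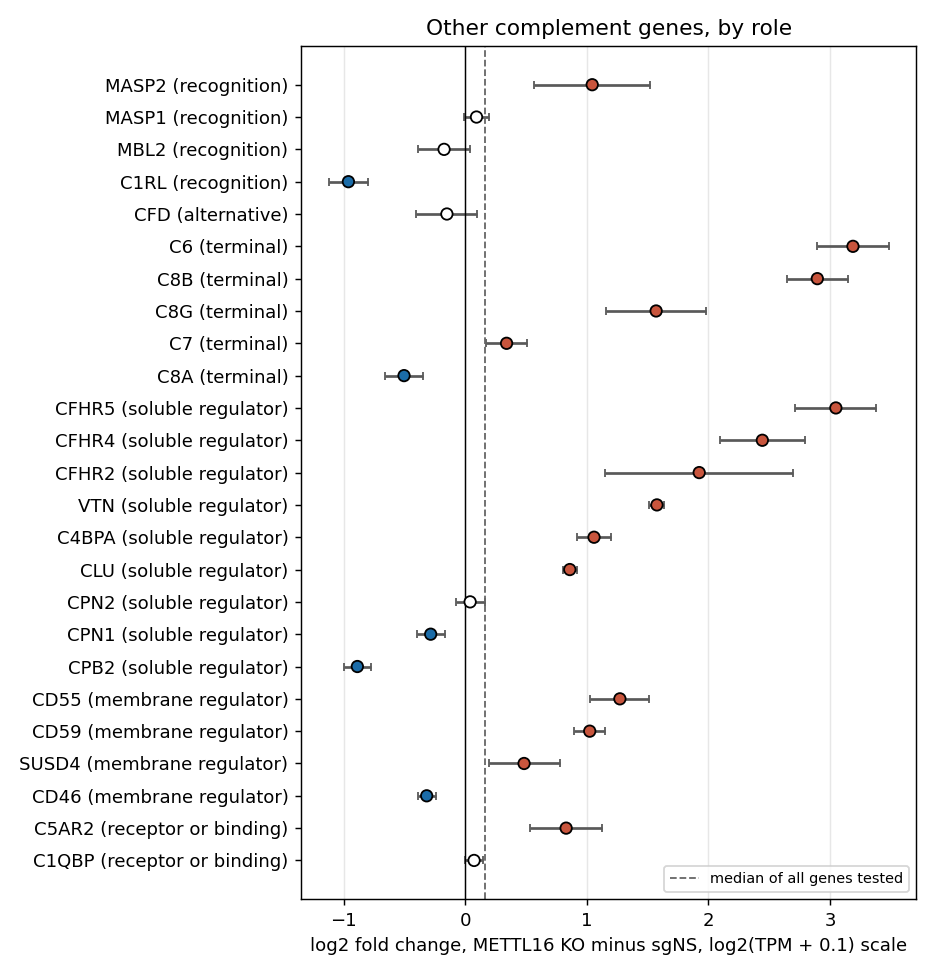
Log2 fold change of the 25 other complement genes tested, grouped by role, with bars for 95% confidence intervals from limma. Filled symbols passed an adjusted p of 0.05 (red higher, blue lower) and the dashed line is the median of all genes tested. C6, CFHR5 and C8B lie highest (2.41, 2.19 and 2.43 with a pseudocount of 1), and C1RL, CPB2, C8A, CD46 and CPN1 are lower. C6 and CFHR5, like MASP2, C8G and CFHR2, averaged under 1 TPM in sgNS and were tested only through their METTL16 KO values, so they had to be higher. With median-ratio scaling 8 of the genes were lower, and MASP1, CPN2 and C1QBP, open symbols here, changed sign.

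Recognition and membrane genes were mixed. MASP2, a protease of the lectin pathway, was listed at 0.80 and 1.09 TPM and then at 1.97 and 2.10 TPM (log2 fold change 1.04, adjusted p = 0.00108). It too was tested only through its METTL16 KO values. MASP1 was at 0.09 with an adjusted p of 0.0843 and the lectin MBL2 at -0.17 with an adjusted p of 0.121. MBL2 and CFD were lower under both rescalings, at -0.34 and -0.31 with the median-ratio one. CFD, the protease that cleaves factor B, had overlapping groups, with 8.47 and 7.18 TPM against 6.42 and 7.66 TPM (adjusted p = 0.246). Of the membrane regulators, CD55 rose by 1.27 and CD59 by 1.02 on the log2 scale, SUSD4 was higher by 0.48 but did not pass without replicate 2 of METTL16 KO (0.38) or with quantile normalization (0.26), and CD46, the most abundant of them, fell from 202 and 202 TPM to 163 and 161 TPM (a log2 fold change of -0.32, adjusted p = 7.63e-06). The receptor gene C5AR2 rose by 0.83, whereas C3AR1 and C5AR1 stayed under 1 TPM and C1QBP was at 0.07 with an adjusted p of 0.0645.

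Genes of signals and factors known to act on complement transcription were examined as a list of 20, of which 16 rose, 2 fell and 2 did not pass, with a median log2 fold change of 0.63. Among all genes 50.1% were higher and 25.6% lower, with a median of 0.16. CEBPD, an acute-phase transcription factor, changed most, from 47.5 and 48.8 TPM to 357 and 364 TPM (log2 fold change 2.90, SE 0.0374, adjusted p = 1.97e-12). IRF1, an interferon-induced factor, rose from 4.92 and 4.52 TPM to 16.05 and 16.6 TPM (1.77), and the kinase gene JAK2 by 1.10. The kinase gene TYK2 fell by 0.29 and the interferon receptor chain IFNGR2 fell by 0.25, although IFNGR2 at -0.20 did not pass without replicate 1 of METTL16 KO. Those that did not pass were IL6R at -0.13 (adjusted p = 0.207) and CEBPA at 0.04 (adjusted p = 0.366). After median-ratio scaling IL6R was lower at -0.29 and CEBPA at -0.13. Whether any of these genes acts on the complement genes was not tested.

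**Figure D5:**
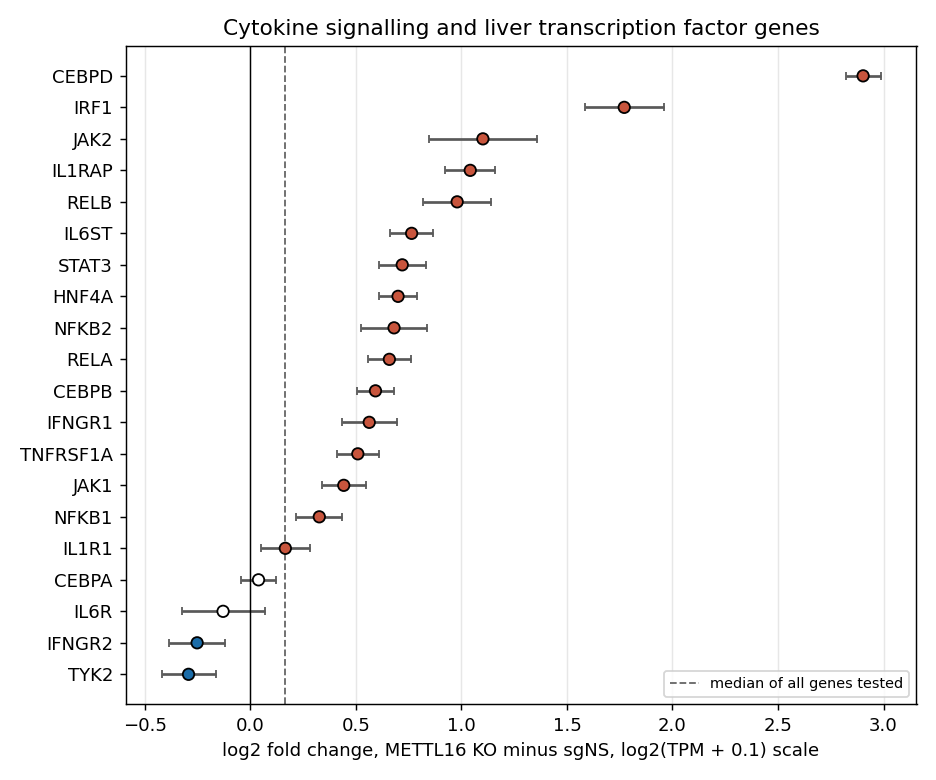
Log2 fold change of 20 cytokine signalling and liver transcription factor genes between METTL16 KO and sgNS, with bars for 95% confidence intervals from limma. Filled symbols passed an adjusted p of 0.05 (red higher, blue lower). CEBPD lies at 2.90, apart from the next gene, IRF1, at 1.77. With median-ratio scaling 4 genes were lower, among them CEBPA, whose sign changed.

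The 5 genes whose profiles over the 4 libraries lay closest to that of C3, by Euclidean distance of centred log2(TPM + 0.1) values, were SLC7A6, DPM3, ERN1, ZNF880 and ZNF79, at distances of 0.0229 to 0.0320. SLC7A6 had a log2 fold change of 0.94 and ZNF79 of 0.92. With 4 libraries in 2 groups, this likeness reflects mainly the size of the change.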

How the data were processed

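Reads from 4 libraries were, per the labels and methods, trimmed with Cutadapt, mapped to GRCh38 with STAR and quantified with RSEM by the authors. The methods name a stranded mRNA kit for the RNA-seq, whereas the labels name both poly(A) selection and ribosomal RNA depletion. Versions, annotation and the strand setting of the quantification are not given in the sources used here. The authors deposited 1 table of TPM values with 2 decimals. RPKM is the unit named in the methods, whereas every column sums to 1000000. Without counts, depth and counting error are unknown.

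From these values, log2(TPM + 0.1) was compared by limma 3.58.1 (R 4.3.3; lmFit, eBayes with trend) for 11971 of 18806 genes with a mean of at least 1 TPM, with all 4 libraries and no block. Alternatives were the pseudocount, filter, scaling, trend, a replicate block and each library left out. The code was tested on simulated data. Gene positions are from GENCODE 44 (GRCh38), and promoter windows from RefSeq (GRCh38.p14). Figures were drawn with matplotlib 3.10.9.

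The genes described and the lists were chosen with earlier results of these data known. Named are all genes described and, from the other complement genes, those past an adjusted p of 0.05 and a log2 fold change of 1 or else the 2 largest changes per direction and role. From the signalling and transcription factor genes, the 3 largest changes per direction are named. Genes outside this rule, such as CPN2, CEBPA, C9 and the C1Q genes, and the pairs with C3 other than C5, were chosen after their values were seen. A planned ratio of CFB to C2 was not computed, as C2 is not analysed here. Some genes of the planned lists are not reported here and were left out of the list counts and figures.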

Additional observations from a re-analysis of the deposited data

How the results depend on the processing

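The counts of 7 higher genes and of 4 past 2-fold held in all 12 alternatives, and 1 gene (CFB) was lower at -0.24 (median-ratio scaling) and -0.21 (quantile normalization). C3 ranged from 0.77 to 1.00, C4BPB from 2.84 to 3.12 and METTL16 from -0.68 to -0.45 on the log2 scale. The median of all genes was 0.16, and -0.0016 and 0.0097 under these rescalings. Of all genes past an adjusted p of 0.05, 66.2% were higher, against 49.9% and 51.0% with those scalings. Of the other complement genes, 8 were higher with a minimum mean of 5 TPM, which tests fewer genes, and 8 were lower with median-ratio scaling.

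Values that changed sign with median-ratio scaling were MASP1 (-0.073), CPN2 (-0.13), C1QBP (-0.093) and CEBPA (-0.13), and with quantile normalization MASP1 (-0.035), CPN2 (-0.11) and IL1R1 (-0.0039). With single libraries left out, CPN2 ran from -0.0051 to 0.085 and CEBPA from -0.0086 to 0.086. Median-ratio scaling divides all genes of a library by the same factor, and it moved the median of all genes from 0.16 to -0.0016. Small positive values therefore changed sign with it. Why the median lay above 0 before this scaling was not tested. Leaving out a library leaves its group with 1, which is then assumed to vary like the other group.

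Same-numbered libraries had deviations with a correlation of -0.044, so the numbers are not taken as pairs. With the replicate block, 15 other complement genes were higher, as without it, and CFB was at -0.08.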
